A study of Mus musculus with 31 samples.

Results

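Bulk RNA-seq libraries of mouse breast tumours treated with poly I:C plus phenformin were set against libraries of tumours given both vehicles, in the 4T1 model. The members are the 4 libraries titled 4T1 combination and the 4 titled 4T1 control, 8 of the 31 libraries of the series, and every difference below is combination minus control. The combination tumours carry the treatment label Poly I:C+Phenformin and the control tumours Saline+PBS. Both are labelled WT in genotype and come from syngeneic tumours placed orthotopically. 4 poly I:C (with PBS) and 3 phenformin (with saline) libraries of the same model entered the same fit. The labels give no dose, duration, age or number of animals, and they do not say that libraries came from separate mice. The p-values therefore measure the spread between libraries, which may be technical. The labels also leave unsaid whether RNA came from pelleted cells or from frozen tissue.

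The labels conflict about the model. The titles name 4T1, a mammary carcinoma line of BALB/c origin, and the series design pairs 4T1 with BALBc mice and MT with FVB mice. On these 8 libraries, however, the tags for strain and cell line read FVB and MT4788. The class II pseudogene H2-Ea-ps ranged over 214 to 970.3 CPM (counts scaled to library size) among 15 libraries with 4T1 in the title, against 5.24 to 53 CPM among 16 with MT. The libraries thus separate by title on this gene. The groups are called here by their titles.

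Phenformin, a biguanide, blocks respiratory complex I in mitochondria, and cells deprived of respiration draw more energy from glycolysis. Poly I:C imitates viral double-stranded RNA and engages Toll-like receptor 3 and cytosolic RNA sensors, which switch on interferon and NF-kB target genes in tumour, stromal and myeloid cells. Low oxygen stabilises hypoxia-inducible factors, which bind a short hypoxia response element near genes of glucose transport, glycolysis and blood flow.

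The 8 libraries held 16321311 to 18210799 counts on genes (combination) and 16546393 to 19177122 (control), against 12160110 to 19849915 over all 31. Control library 4 stood apart: it had the most T cell transcripts of the 8, and its levels leaned to GC-rich genes by 0.20 log2 units per 10 percentage points of GC, against -0.03 to 0.06 in the other 7. Skeletal muscle transcripts were prominent in combination libraries 1 and 4, where Acta1, the skeletal alpha-actin, measured 239 and 96.8 CPM. The 5 libraries with Acta1 above 10 CPM (these 2, 2 of poly I:C and 1 of phenformin) are called muscle-rich below. List medians that moved by more than 0.1 without them are given both ways.

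No gene passed an adjusted p of 0.05 in edgeR's quasi-likelihood test of all 15 4T1 libraries over 17445 genes. The smallest adjusted p was 0.0601, shared by 9 genes. At an unadjusted p under 0.05 the same test found 2072 genes, which is 11.9% of those tested, with 1154 higher (6.62%) and 918 lower (5.26%) in the combination. All 4 combination libraries lay above all 4 control libraries for 772 genes (4.43%) and below them for 733 genes (4.2%), together 8.63%. Among protein-coding genes, the 1043 higher at that unadjusted level had a median transcript GC content of 47.7% and length of 4133 bases. The 832 lower had 52.1% and 3086 bases, and all protein-coding genes tested had 49.8% and 3356 bases. With each library's GC trend removed, a correction chosen after seeing the data, edgeR still called 0 genes and found 2084 at an unadjusted p under 0.05.

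When only the 8 combination and control libraries were fitted, edgeR called 32 of 16455 genes (0.194%), 23 higher (0.14%) and 9 lower (0.0547%). DESeq2 on the 15 libraries called 395 genes (2.26%), 268 higher (1.54%) and 127 lower (0.728%), and limma voom called 226. The calls of the 8-library fit changed when single libraries were left out, and the reason was not tested. Leaving out combination library 1 or control library 1 gave 28 and 40 calls, of which 18 and 19 were among the 32, while leaving out any of the other 6 gave 0 to 4. Without combination libraries 1 and 4 there were 5 calls, with Fkbp5 the single gene shared with the 32. Adjusted p-values below are from edgeR on 15 libraries, and those of the 8-library fit are named as such.

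**Figure D1:**
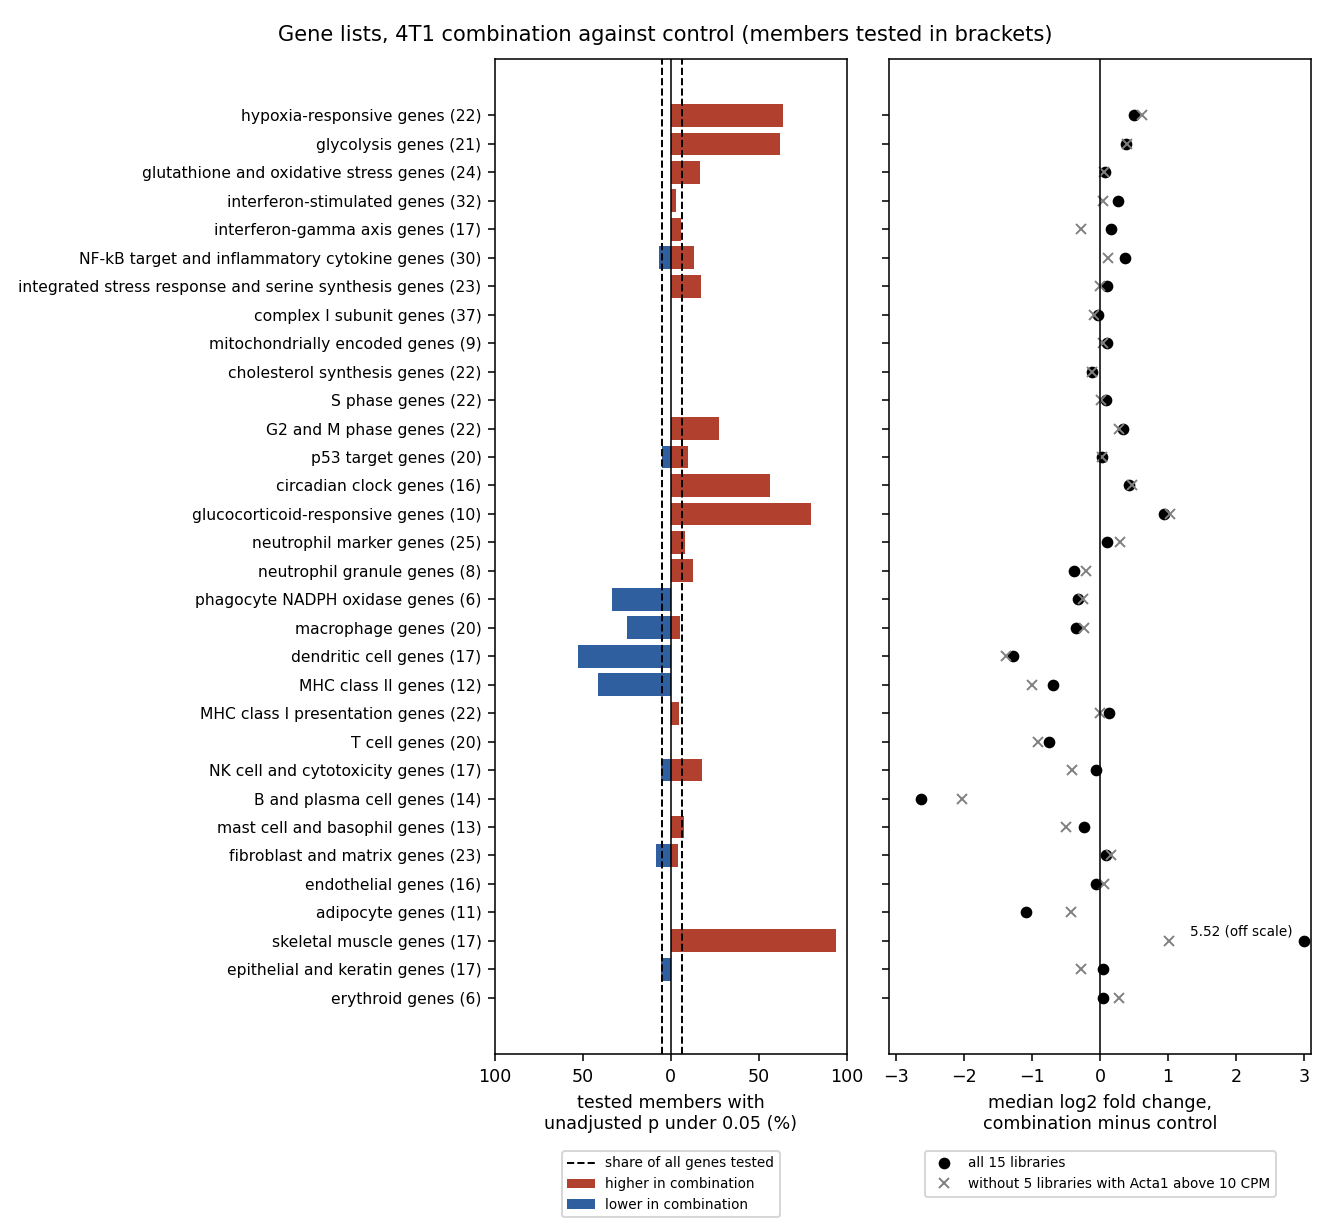
Left, the share of tested members of 32 gene lists with an edgeR unadjusted p under 0.05, with those higher in the combination to the right of 0 and those lower to the left. Dashed lines mark the shares over all genes tested, 6.62% and 5.26%. Right, the median log2 fold change of each list in the fit of 15 libraries (dots) and without the 5 libraries with Acta1 above 10 CPM (crosses). In the left panel, muscle, glucocorticoid-responsive, hypoxia-responsive, glycolysis and clock genes reach furthest to the right, and dendritic cell and class II genes furthest to the left.

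Hypoxia-responsive genes were higher in the combination as a group. Of 22 tested, 21 had a positive log2 fold change. At an unadjusted p under 0.05, 14 were higher (63.6%, against 6.62% of all genes) and 0 lower. The groups did not overlap for 11, all higher, against 4.43% of all genes. The list's median log2 fold change was 0.49, against 0.00 over all genes tested, and 0.62 without the muscle-rich libraries. The RefSeq promoters (GRCm38.p6, 250 bases before to 50 after the start) of Kdm3a and Adm are shown because these genes lead the list, with the hypoxia response element core (ACGTG or GCGTG, either strand) in capitals. The Kdm3a window is chr6:71632868-71633167 on the minus strand, the first of 3 in the table, and the Adm window is chr7:110627407-110627706 on the plus strand.
Kdm3a: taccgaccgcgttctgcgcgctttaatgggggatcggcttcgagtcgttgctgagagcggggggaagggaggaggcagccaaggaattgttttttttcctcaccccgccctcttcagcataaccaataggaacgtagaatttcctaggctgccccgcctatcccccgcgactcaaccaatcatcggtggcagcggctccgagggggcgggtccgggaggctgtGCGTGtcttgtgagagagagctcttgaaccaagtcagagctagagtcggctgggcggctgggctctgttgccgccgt
Adm: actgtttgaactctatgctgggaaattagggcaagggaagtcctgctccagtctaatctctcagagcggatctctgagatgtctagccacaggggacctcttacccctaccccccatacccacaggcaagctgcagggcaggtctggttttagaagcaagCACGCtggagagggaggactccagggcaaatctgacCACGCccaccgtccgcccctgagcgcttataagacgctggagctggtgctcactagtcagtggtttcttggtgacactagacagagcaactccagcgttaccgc
The core occurs in 1 place in the Kdm3a window and in 2 places in the Adm window. It is found in the promoters of 15 of the 17 list genes that matched the table (88.2%), and in 43.8% of all 32851 promoters. The list names hypoxia-responsive genes, so this share is no test of the treatment. The same holds for the motif shares of lists below.

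Kdm3a, a histone H3 lysine demethylase (chr6:71588972-71632990; gene positions here are GENCODE M21 on GRCm38), measured 115, 138, 125 and 126 CPM in the combination libraries, against 82.2, 95.3, 78.3 and 75.4 CPM in the control libraries. The lowest combination library lay above the highest control. Its log2 fold change was 0.60 ± 0.11 (SE), with an edgeR adjusted p of 0.0746 and of 0.0437 in the 8-library fit. Adm encodes adrenomedullin, a peptide that widens blood vessels (chr7:110627661-110629820). It measured 29.0, 38.1, 64.4 and 48.6 CPM in the combination libraries, against 19.4, 16.3, 13.4 and 15 CPM in the control libraries. The combination libraries were all higher and more widely spread than the controls, with a log2 fold change of 1.49 ± 0.39 and edgeR adjusted p of 0.135 (0.0437 in the 8-library fit).

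Ndrg1, a stress-responsive gene (chr15:66929318-66969640), measured 880.4, 832, 1002 and 896 CPM in the combination libraries, against 634, 507, 415 and 464 CPM in the control libraries. The groups did not overlap, with a log2 fold change of 0.84 ± 0.26 and an 8-library edgeR adjusted p of 0.0447. Gm17035 is annotated as antisense within Ndrg1 (chr15:66929607-66931107) and averaged 130.0 ± 11.9 CPM in combination and 72.3 ± 11.2 CPM in control libraries (SD, n = 4 each). The kit keeps strand but the strand setting of the counting is not given in the sources used here, so reads of Ndrg1 and Gm17035 cannot be told apart. Higd1a, a mitochondrial inner membrane protein gene (chr9:121848563-121858362), measured 28.7, 34.5, 34.5 and 43.3 CPM in the combination libraries, against 20.4, 20.8, 21.7 and 19.8 CPM in the control libraries, again without overlap. Its log2 fold change was 0.77 ± 0.24 and its 8-library edgeR adjusted p 0.0492.

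Slc2a1, the glucose transporter GLUT1, averaged 177 ± 22.1 CPM in combination and 96.3 ± 19.5 CPM in control libraries (SD, n = 4 each). Bnip3, a receptor for removal of mitochondria, averaged 126 ± 23.3 CPM in combination and 69.2 ± 10.3 CPM in control libraries. Egln1, the prolyl hydroxylase that marks hypoxia-inducible factors for degradation, averaged 195 ± 9.93 CPM in combination and 153 ± 10.8 CPM in control libraries. None of these 3 genes overlapped between the groups, and their edgeR adjusted p-values lay between 0.171 and 0.221. They were chosen after their values were seen. The same holds for Ero1l, an oxidase of disulfide bonds, with 239.8, 288, 340.4 and 284 CPM in the combination libraries against 205, 192, 153 and 113 CPM in the control libraries. The lone negative member was Egln3, another prolyl hydroxylase, with a log2 fold change of -0.10 ± 0.17 and overlapping groups. Vegfa, the endothelial growth factor, also overlapped, with 108, 84.5, 161 and 147 CPM in the combination libraries against 124, 102, 86.4 and 77.0 CPM in the control libraries. Gys1, which encodes muscle-type glycogen synthase and is outside the list (chr7:45434844-45456619), measured 77.5, 80.1, 80.1 and 69.4 CPM in the combination libraries, against 55.6, 58.1, 51.0 and 51.2 CPM in the control libraries. It had a log2 fold change of 0.51 ± 0.12 and an 8-library edgeR adjusted p of 0.0447.

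**Figure D2:**
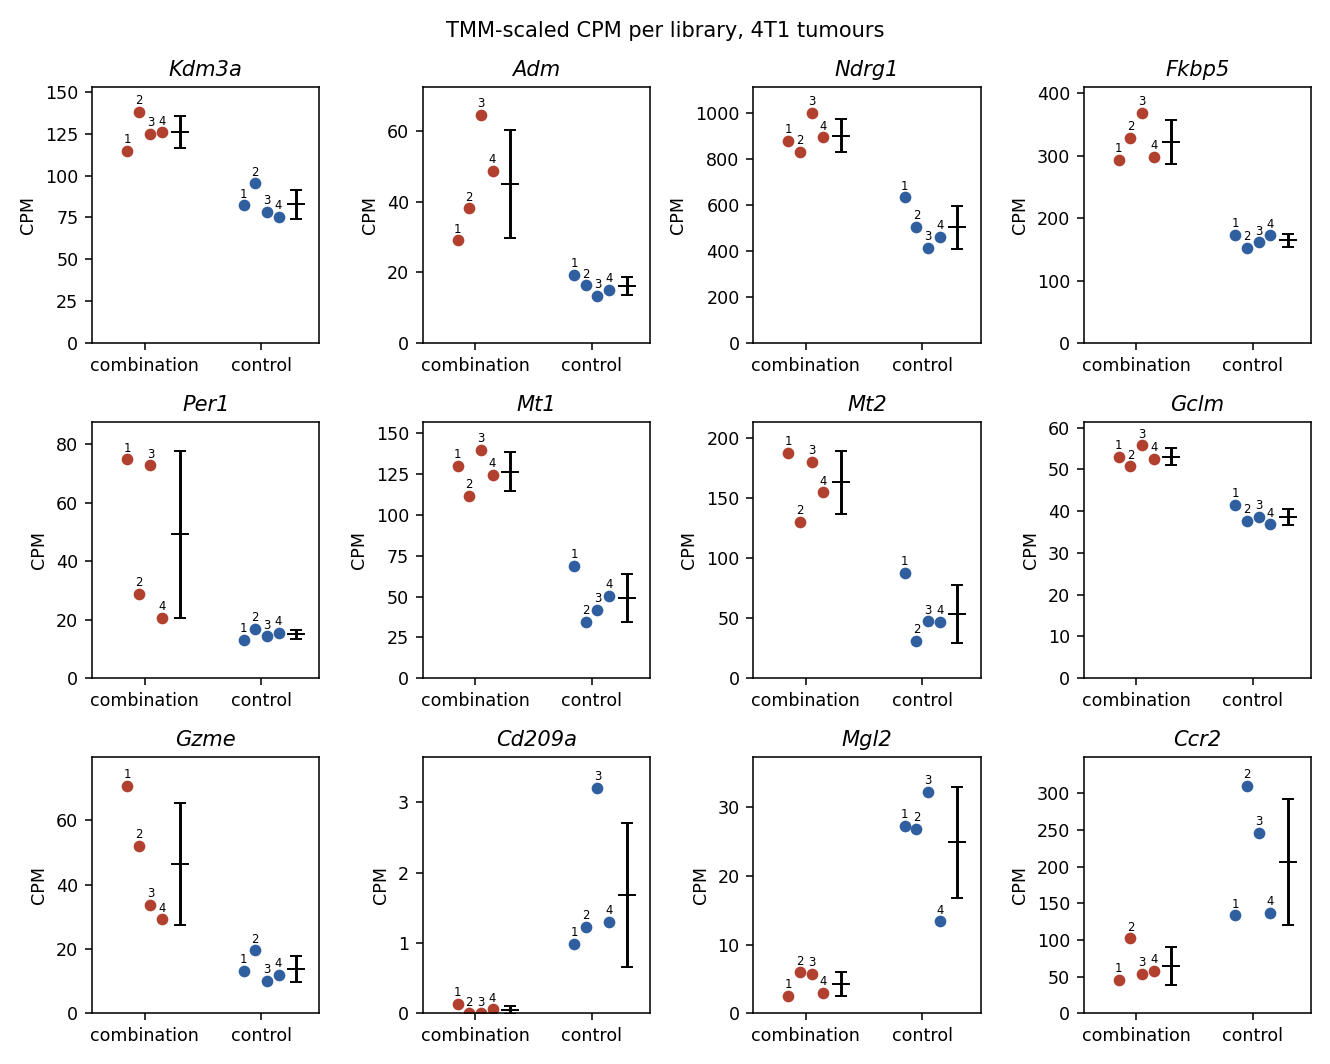
TMM-scaled CPM of 12 genes in each library, combination left of control, with replicate numbers above the points and black bars for the mean ± SD (n = 4 each). The groups do not overlap in any of the 12 panels. Kdm3a, Fkbp5 and Gclm are tight in both groups, while Adm, Per1 and Gzme spread widely in the combination.

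Glycolysis genes were also higher in the combination as a group: 20 of 21 tested had a positive log2 fold change. At an unadjusted p under 0.05 there were 13 (61.9%, all higher, against 6.62% of all genes). Without overlap there were 9, all higher, against 4.43% of all genes. The median log2 fold change was 0.38. Pkm, pyruvate kinase of the final step (chr9:59656368-59679375), measured 1625, 1649, 1706 and 1523 CPM in the combination libraries, against 1449.9, 1184, 1201 and 1361 CPM in the control libraries, with a log2 fold change of 0.32 ± 0.09 and edgeR adjusted p of 0.148. Tpi1, triosephosphate isomerase (chr6:124810586-124814296), measured 420.1, 491, 468 and 441 CPM in the combination libraries, against 369, 351, 307 and 372 CPM in the control libraries, a log2 fold change of 0.38 ± 0.10. Both genes were without overlap, and neither passed the test. Aldoa, an aldolase, averaged 901 ± 50.6 CPM in combination and 655 ± 38.7 CPM in control libraries (SD, n = 4 each), and Ldha, lactate dehydrogenase A, 777 ± 53.2 CPM in combination and 614 ± 53.2 CPM in control libraries. Slc16a3, a lactate exporter, overlapped, with a log2 fold change of 0.13 ± 0.24. Gapdh, Pgk1, Pgam1 and Eno1 have many near-identical pseudogenes, so their counts are uncertain.

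Glucocorticoid-responsive and clock genes formed a further group higher in the combination. Glucocorticoids act through a nuclear receptor that induces a characteristic set of genes in most tissues, among them the clock repressor Per1. Of the 10 glucocorticoid-responsive genes, 9 had a positive log2 fold change, 8 an unadjusted p under 0.05 (all higher) and 7 no overlap (all higher), with a median of 0.94. Of the 16 clock genes, 13 were positive, 9 had an unadjusted p under 0.05 (all higher) and 6 had no overlap (all higher), with a median of 0.42. The shares at that unadjusted p were 80% and 56.2% in that order, against 6.62% of all genes for higher values. Over all genes, 4.43% were higher without overlap. The labels give no time of day for the sampling, so its part in these values was not tested.

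Fkbp5, a co-chaperone of the glucocorticoid receptor (chr17:28399094-28517527), measured 293, 329, 368 and 298 CPM in the combination libraries, against 173, 152, 161 and 172 CPM in the control libraries. It was 1.96-fold higher without overlap, with a log2 fold change of 0.97 ± 0.20 and an edgeR adjusted p of 0.0860. In the 8-library fit its edgeR adjusted p was 0.0122, the smallest there together with Pi15. Tsc22d3, which encodes the glucocorticoid-induced leucine zipper (chrX:140539528-140600659), measured 113, 81.4, 127 and 69.1 CPM in the combination libraries, against 42.3, 56.0, 55.2 and 53.2 CPM in the control libraries. Zbtb16, a zinc finger regulator (chr9:48654297-48836222), measured 3.93, 2.46, 6.18 and 2.71 CPM in the combination libraries, against 0.0518, 0.962, 0.776 and 1.48 CPM in the control libraries. Both stood above every control, with log2 fold changes of 0.92 ± 0.23 for Tsc22d3 and 2.23 ± 0.65 for Zbtb16. Klf9 and Errfi1 overlapped between the groups, at log2 fold changes of 0.77 ± 0.24 and -0.19 ± 0.18.

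Per1 (chr11:69095217-69109960) measured 74.8, 28.7, 72.7 and 20.8 CPM in the combination libraries, against 13.2, 16.8, 14.3 and 15.5 CPM in the control libraries. Libraries 1 and 3 of the combination were far above libraries 2 and 4, and all were above the controls, with a log2 fold change of 1.72 ± 0.36 and an edgeR adjusted p of 0.0860. The same split of the combination libraries appears in Tsc22d3, Zbtb16 and Klf9. Per2, another clock repressor (chr1:91415982-91459324), measured 30.4, 18.9, 23.9 and 18.3 CPM in the combination libraries, against 12.9, 15.3, 10.1 and 11.2 CPM in the control libraries, a log2 fold change of 0.89 ± 0.18 with an edgeR adjusted p of 0.0860. Nr1d1, the nuclear receptor REV-ERB alpha that represses Arntl, averaged 31.4 ± 6.88 CPM in combination and 19.1 ± 1.15 CPM in control libraries (SD, n = 4 each). Arntl itself, the activator BMAL1, had a log2 fold change of -0.24 ± 0.16 with overlapping groups.

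**Figure D3:**
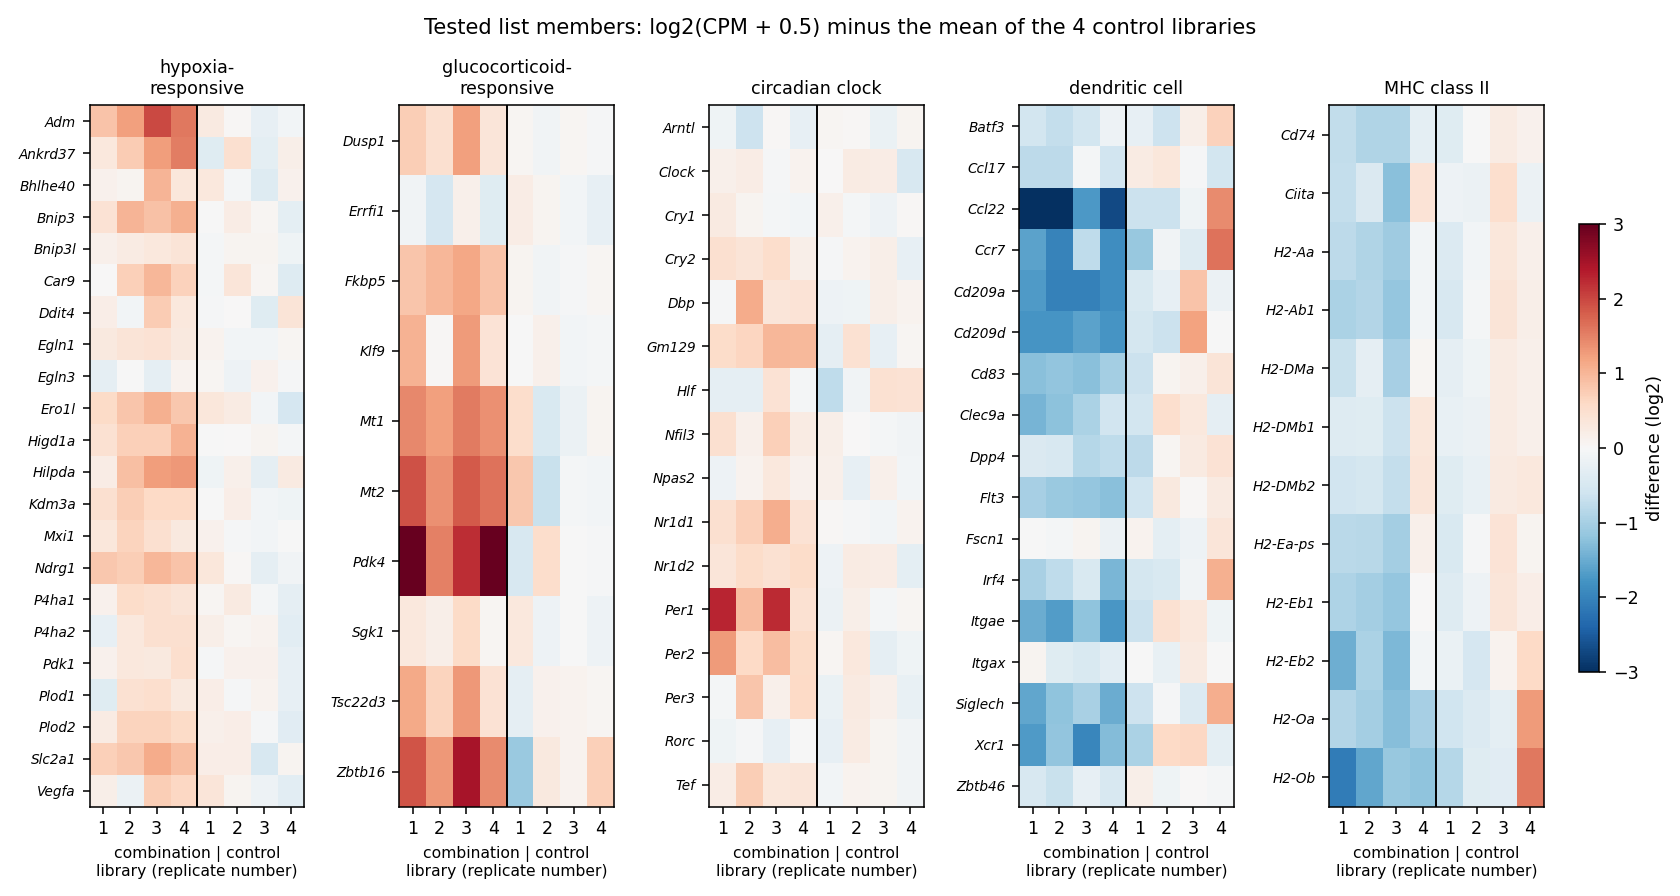
Each tested member of 5 lists in each of the 8 libraries, as log2(CPM + 0.5) minus the mean of the 4 control libraries. Columns are combination libraries 1 to 4 and then control libraries 1 to 4, and red is higher. Hypoxia-responsive, glucocorticoid-responsive and many clock genes are red in the combination, while dendritic cell and class II genes are blue.

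Mt1 and Mt2, metallothioneins that bind zinc and respond to metals as well as glucocorticoids, were in the same list. Mt1 (chr8:94179082-94180327) measured 130.1, 112, 139.8 and 124 CPM in the combination libraries, against 68.8, 34.6, 42.0 and 50.4 CPM in the control libraries. Mt2 (chr8:94172664-94173568) measured 188, 130.3, 181 and 155 CPM in the combination libraries, against 87.6, 31.1, 47.4 and 47.2 CPM in the control libraries. Neither gene overlapped, and control library 1 was the highest control for both. The log2 fold changes were 1.37 ± 0.31 for Mt1 and 1.61 ± 0.40 for Mt2, with 8-library edgeR adjusted p-values of 0.0415 and 0.0492. Their promoters and that of Per1 are shown because Mt1 and Mt2 are neighbours with like differences and Per1 had the largest clock difference. Capitals mark the metal response element core (TGCACNC or TGCGCNC, either strand) in Mt1 (chr8:94178839-94179138, plus strand) and Mt2 (chr8:94172368-94172667, plus strand). In Per1 (chr11:69098699-69098998, plus strand, the first of 2 windows in the table) they mark the E-box CACGTG bound by clock activators. The E-box contains the letters ACGTG counted above as a hypoxia response element core.
Mt1: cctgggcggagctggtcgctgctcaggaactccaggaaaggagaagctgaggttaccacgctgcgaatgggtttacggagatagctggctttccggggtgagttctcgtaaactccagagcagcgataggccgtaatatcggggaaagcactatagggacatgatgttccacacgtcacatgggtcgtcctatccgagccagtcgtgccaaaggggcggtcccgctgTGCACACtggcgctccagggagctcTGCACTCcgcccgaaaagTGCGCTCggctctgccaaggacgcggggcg
Mt2: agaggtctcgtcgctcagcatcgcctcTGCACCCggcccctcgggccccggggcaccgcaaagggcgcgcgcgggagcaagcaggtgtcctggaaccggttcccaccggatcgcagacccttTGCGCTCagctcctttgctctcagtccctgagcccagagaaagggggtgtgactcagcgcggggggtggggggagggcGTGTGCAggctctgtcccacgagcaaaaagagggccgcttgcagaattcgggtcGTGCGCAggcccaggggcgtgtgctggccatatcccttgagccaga
Per1: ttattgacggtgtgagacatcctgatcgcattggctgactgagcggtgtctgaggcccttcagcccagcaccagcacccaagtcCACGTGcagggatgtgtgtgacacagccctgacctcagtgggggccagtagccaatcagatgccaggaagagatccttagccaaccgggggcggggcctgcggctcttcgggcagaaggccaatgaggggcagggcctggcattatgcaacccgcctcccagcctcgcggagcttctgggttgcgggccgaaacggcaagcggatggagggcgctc
The metal response element core occurs in 3 places in the Mt1 window and in 4 in the Mt2 window, and in 25.7% of all promoters. The Per1 window holds 1 E-box, which 7.15% of all promoters and 4 of the 14 matched clock gene promoters (28.6%) also hold.

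Pdk4, which encodes the kinase that shuts off pyruvate dehydrogenase during fasting (chr6:5483351-5496309), measured 48.5, 3.72, 6.42 and 17.8 CPM in the combination libraries, against 0.570, 1.66, 0.983 and 0.944 CPM in the control libraries. Its log2 fold change was 4.19 ± 0.78 with an edgeR adjusted p of 0.0746, and 2.27 without the muscle-rich libraries. Combination libraries 1 and 4, highest in Pdk4, were also highest in muscle transcripts. Fnip1, a partner of folliculin in nutrient sensing (chr11:54438199-54518235), measured 118, 121, 108 and 101 CPM in the combination libraries, against 65.7, 73.3, 67.5 and 52.2 CPM in the control libraries. Ccng2, the growth-restraining cyclin G2 (chr5:93267257-93276231), measured 127, 162, 148 and 164 CPM in the combination libraries, against 65.3, 96.7, 82.3 and 87.9 CPM in the control libraries. Klf11, a Krüppel-like transcription factor (chr12:24651274-24662789), measured 22, 22.6, 23.2 and 18.1 CPM in the combination libraries, against 12.4, 11.5, 13.1 and 11.4 CPM in the control libraries. None of these 3 genes overlapped between groups. Their log2 fold changes were 0.79 ± 0.14, 0.85 ± 0.16 and 0.82 ± 0.14 in that order, with 8-library edgeR adjusted p-values of 0.0415, 0.0437 and 0.0415.

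Pi15, a secreted peptidase inhibitor gene (chr1:17601901-17630939), measured 9.35, 8.82, 11.7 and 10.7 CPM in the combination libraries, against 3.63, 3.47, 4.19 and 3.25 CPM in the control libraries. It was 2.79-fold higher, with a log2 fold change of 1.48 ± 0.25 and edgeR adjusted p-values of 0.0601 on 15 libraries and 0.0122 on 8. The other genes called higher on 8 libraries were Depdc7, Rusc2, 1810013L24Rik, Zfp292, Zfp948, G2e3, Gprc5b, Hectd2 and the processed pseudogene Gm9790, with log2 fold changes from 0.54 (Zfp292) to 0.92 (Rusc2). Depdc7 had 58.7, 59.4, 58.6 and 58.0 CPM in the combination libraries against 42.3, 30.9, 32.0 and 32.2 CPM in the control libraries. The combination libraries of Depdc7 were nearly equal and all higher. Of genes called lower on 8 libraries outside the immune lists, Hs6st1, a heparan sulfate sulfotransferase (chr1:36068400-36106446), measured 78.0, 80.9, 77.4 and 85.2 CPM in the combination libraries, against 136, 109.7, 128 and 122 CPM in the control libraries. Its log2 fold change was -0.63 ± 0.12 with an 8-library edgeR adjusted p of 0.0415. Sh2d4a, an SH2 domain adaptor gene (chr8:68276567-68347699), measured 6.45, 5.86, 3.12 and 4.79 CPM in the combination libraries, against 13.8, 18.3, 11.9 and 19.8 CPM in the control libraries, a log2 fold change of -1.66 ± 0.43. Nop2, an RNA methyltransferase of ribosome assembly (chr6:125131909-125144753), measured 51.3, 47.5, 45.9 and 46.6 CPM in the combination libraries, against 73.7, 62.5, 65.9 and 70.6 CPM in the control libraries, a log2 fold change of -0.51 ± 0.10. Each of these genes separated the groups without overlap.

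Gclm, the modifier subunit of the enzyme that starts glutathione synthesis (chr3:122245557-122270732), measured 53.1, 50.8, 55.8 and 52.6 CPM in the combination libraries, against 41.4, 37.6, 38.7 and 36.8 CPM in the control libraries. The groups were tight and separate, with a log2 fold change of 0.46 ± 0.08 and an edgeR adjusted p of 0.0601. The promoter (chr3:122245307-122245606, plus strand) is shown with the antioxidant response element core (TGACNNNGC, either strand) in capitals, since Gclm leads the oxidative stress list.
Gclm: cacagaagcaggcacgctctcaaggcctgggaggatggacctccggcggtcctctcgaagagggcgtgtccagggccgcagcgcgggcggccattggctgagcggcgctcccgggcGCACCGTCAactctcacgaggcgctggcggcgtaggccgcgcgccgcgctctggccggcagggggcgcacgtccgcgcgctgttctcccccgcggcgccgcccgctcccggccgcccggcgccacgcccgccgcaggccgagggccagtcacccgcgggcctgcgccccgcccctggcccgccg
The core occurs in 1 place here, in the promoters of 6 of 20 matched list genes (30%) and in 12.4% of all promoters. Over the 24 tested genes of the list, 4 had an unadjusted p under 0.05 (all higher, against 6.62% of all genes) and the median log2 fold change was 0.07. The catalytic subunit gene Gclc had 0.19 ± 0.12 and Nqo1, a quinone reductase, 0.02 ± 0.18. Hmox1, heme oxygenase, measured 62.3, 81.3, 238 and 129 CPM in the combination libraries against 90.1, 52.8, 55.3 and 47.4 CPM in the control libraries, high in combination library 3 and overlapping.

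Dendritic cell genes were lower in the combination as a group. All 17 tested had a negative log2 fold change, with a median of -1.28. At an unadjusted p under 0.05, 9 were lower (52.9%, against 5.26% of all genes), and 10 had no overlap (all lower, against 4.2% of all genes). These counts hold Cd209a and Cd209d, which passed the count filter mainly through the control libraries, where they were high. Their lower values are thus no independent support. In these bulk tumours, fewer cells of a type and less RNA per cell cannot be told apart. Cd209a, a mouse homologue of the lectin DC-SIGN (chr8:3743397-3748984), measured 0.129, 0, 0 and 0.0564 CPM in the combination libraries, against 0.985, 1.23, 3.21 and 1.30 CPM in the control libraries. This rests on 3 counts in all combination libraries and 126 in all controls, a ratio of 0.0252 with an exact 95% counting interval of 0.00513 to 0.0754. Its 8-library edgeR adjusted p was 0.0418. Cd209d had 1 count in the combination and 110 in the control, a ratio of 0.00963 (0.000242 to 0.0548), and Cd209b 3 and 227 counts, a ratio of 0.0140 (0.00286 to 0.0414). Cd209b measured 0, 0, 0.0612 and 0.113 CPM in the combination libraries, against 0.207, 0.427, 2.74 and 9.56 CPM in the control libraries, with most counts in control library 4. Without that library its ratio was 0.0378 (0.00759 to 0.115), on 3 and 65 counts. The 3 genes are paralogues on chromosome 8, and counts may be split among them.

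Itgae, the integrin CD103 of cross-presenting dendritic cells and resident T cells (chr11:73090583-73147446), measured 1.87, 1.59, 2.39 and 1.47 CPM in the combination libraries, against 3.73, 8.55, 7.76 and 5.61 CPM in the control libraries. Cd83, a marker of dendritic cell maturation (chr13:43784775-43803132), measured 6.90, 7.28, 6.97 and 8.23 CPM in the combination libraries, against 10.8, 18.3, 19.3 and 22.8 CPM in the control libraries. Both genes separated the groups and were called lower on 8 libraries, with edgeR adjusted p-values of 0.0437 and 0.0447 there, and of 0.165 and 0.516 on 15 libraries. Xcr1, the chemokine receptor of cross-presenting dendritic cells, measured 1.03, 1.70, 0.795 and 1.52 CPM in the combination libraries against 2.07, 7.10, 7.24 and 3.60 CPM in the control libraries. Ccl22, a chemokine of mature dendritic cells, measured 0.710, 0.712, 2.39 and 0.959 CPM in the combination libraries against 5.65, 5.66, 8.22 and 25 CPM in the control libraries, with control library 4 far above the rest. Siglech, a receptor of plasmacytoid dendritic cells, measured 0.194, 0.383, 0.551 and 0.226 CPM in the combination libraries against 0.830, 1.5, 1.03 and 3.84 CPM in the control libraries. The log2 fold changes were -1.98 ± 0.65 for Xcr1, -3.22 ± 0.97 for Ccl22 and -2.38 ± 1.02 for Siglech. Without control library 4 the Ccl22 log2 fold change was -2.45 and the Siglech log2 fold change -1.71. Fscn1, also expressed by tumour cells, was at -0.06 ± 0.13. Without the muscle-rich libraries the list's median was -1.38.

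Scimp, an adaptor of antigen-presenting cells (chr11:70790932-70812586), measured 5.42, 6.19, 5.44 and 6.77 CPM in the combination libraries, against 10.2, 11.3, 10.3 and 10.5 CPM in the control libraries. Rasgrp1, an activator of Ras in lymphocytes (chr2:117279993-117343001), measured 10.5, 11.6, 10.3 and 12.6 CPM in the combination libraries, against 16.5, 23.5, 23.3 and 29.7 CPM in the control libraries. Neither overlapped, with log2 fold changes of -0.83 ± 0.16 and -1.05 ± 0.47 and 8-library edgeR adjusted p-values of 0.0437 and 0.0447 (0.0825 and 0.397 on 15 libraries). MHC class II genes, which present antigen to CD4 T cells, were negative in 12 of 12. At an unadjusted p under 0.05 there were 5 (41.7%, all lower, against 5.26% of all genes). Without overlap there were 2, all lower, against 4.2% of all genes. Cd74, the invariant chain, measured 1195, 1068, 1056 and 1629 CPM in the combination libraries against 1541, 1966, 2374 and 2177 CPM in the control libraries, and H2-Ab1 301, 315, 259 and 547 CPM in the combination libraries against 416, 552, 752 and 654 CPM in the control libraries. Combination library 4 reached into the control range for both genes. The list's summed level was 2549 to 5123 CPM in combination and 4061 to 6858 CPM in control libraries, and its median log2 fold change was -0.69 (-0.99 without the muscle-rich libraries).

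Macrophage genes were less uniform. Of 20 tested, 17 were negative, and the median log2 fold change was -0.36 (-0.24 without the muscle-rich libraries). At an unadjusted p under 0.05, 5 were lower and 1 higher, 30% in either direction against 11.9% of all genes. Mgl2, a galactose-binding lectin of macrophages and dendritic cells (chr11:70130329-70137550), measured 2.58, 5.97, 5.69 and 2.93 CPM in the combination libraries, against 27.3, 26.9, 32.2 and 13.4 CPM in the control libraries. It had a log2 fold change of -2.53 ± 0.49 and edgeR adjusted p-values of 0.0815 on 15 libraries and 0.0415 on 8. Clec10a, its close relative, averaged 2.38 ± 1.31 CPM in combination and 7.13 ± 2.50 CPM in control libraries (SD, n = 4 each), and the 2 sequences may share reads. Cx3cr1, the fractalkine receptor (chr9:119901616-120069879), measured 28.4, 76.9, 51.0 and 60.6 CPM in the combination libraries, against 124, 178, 175 and 132 CPM in the control libraries. These 3 genes did not overlap, whereas the pan-macrophage genes did. Csf1r had a log2 fold change of -0.49 ± 0.20, C1qa -0.34 ± 0.17, Emr1 -0.38 ± 0.31 and Cd68 0.01 ± 0.18. Mertk, a receptor for dying cells, was the member with a higher value, at 0.60 ± 0.22. Ccr2, the chemokine receptor that brings monocytes into tissue (chr9:124101950-124113557), measured 45.2, 102, 53.4 and 57.6 CPM in the combination libraries, against 134, 309, 246 and 137 CPM in the control libraries, a log2 fold change of -1.67 ± 0.32 with an edgeR adjusted p of 0.0757. It was chosen after its values were seen.

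Several cytotoxic granule genes had higher values in the combination, and markers of the NK and T cells that usually carry them had mixed or lower values. Gzme, granzyme E (chr14:56117626-56120625), measured 70.6, 52.0, 33.8 and 29.2 CPM in the combination libraries, against 13.2, 19.6, 10.1 and 12 CPM in the control libraries. It was 3.38-fold higher without overlap, with a log2 fold change of 1.76 ± 0.27 and edgeR adjusted p-values of 0.0601 on 15 libraries and 0.0492 on 8. Prf1, the pore-forming protein perforin (chr10:61297833-61304680), measured 33.2, 27.4, 10.5 and 13.9 CPM in the combination libraries, against 5.29, 8.60, 7.45 and 6.49 CPM in the control libraries, a log2 fold change of 1.61 ± 0.39. Gzmc, a neighbour of Gzme in the granzyme cluster (chr14:56231441-56234656), measured 54.3, 58.3, 11.3 and 18.9 CPM in the combination libraries, against 10.1, 11.9, 8.27 and 6.61 CPM in the control libraries. Combination libraries 1 and 2 were the highest in all 3 genes, and libraries 3 and 4 came close to or into the control range for Gzmc. The granzymes of this cluster are near-identical in part, so their counts are uncertain. Of the 17 tested NK cell and cytotoxicity genes, 8 were positive and 9 negative, with a median of -0.06 (-0.42 without the muscle-rich libraries). At an unadjusted p under 0.05, 3 were higher and 1 lower, 23.5% in either direction against 11.9% of all genes. Ncr1, an NK cell receptor, had a log2 fold change of -0.65 ± 0.58, Ifng -0.14 ± 0.36 and the chemokine Xcl1 -2.03 ± 0.63. T cell genes were negative in 19 of 20 with a median of -0.75 (-0.92 without the muscle-rich libraries), with 0 at an unadjusted p under 0.05, and the list summed to 134 to 164 CPM in combination libraries, against 124 to 173 CPM in control libraries 1 to 3 and 428 CPM in control library 4.

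Interferon-stimulated genes, which poly I:C is known to induce, had small positive differences. All 32 tested had a positive log2 fold change, with a median of 0.26, but 1 had an unadjusted p under 0.05 (3.12%, against 6.62% of all genes for higher values) and the median was 0.05 without the muscle-rich libraries. That gene was Isg20, an RNA exonuclease, with 28.6, 35.4, 40.4 and 38.0 CPM in the combination libraries against 27.0, 27.2, 26.6 and 26.1 CPM in the control libraries. Irf7, the transcription factor that amplifies interferon, measured 164, 48.9, 185 and 168 CPM in the combination libraries against 56.7, 93.9, 66.4 and 86.3 CPM in the control libraries, and Rsad2, the antiviral protein viperin, 35.9, 14.3, 52.8 and 44.5 CPM in the combination libraries against 20.8, 27.1, 19.3 and 21.5 CPM in the control libraries. Combination library 2 was below every control in both genes, and the other 3 combination libraries were above every control. The summed level of the list was 1765 CPM in combination library 2 and 2799 to 3363 CPM in combination libraries 1, 3 and 4, against 2172 to 2480 CPM in the control libraries. Without the muscle-rich libraries only combination libraries 2 and 3 remained in that group, so the median of 0.05 leans on library 2. Interferon-gamma axis genes had a median of 0.15, which turned to -0.29 without the muscle-rich libraries, again on combination libraries 2 and 3. Of the 17, 1 had an unadjusted p under 0.05 (5.88%, against 6.62% of all genes for higher values). It was Gbp2, a guanylate-binding protein, with 451, 469.7, 378 and 703 CPM in the combination libraries against 389, 299, 369.8 and 351 CPM in the control libraries. Its log2 fold change was 0.51 ± 0.20, and 0.25 without the muscle-rich libraries, of which combination library 4 was the highest.

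NF-kB targets and inflammatory cytokines had differences in both directions. Of 30 tested, 19 were positive and 11 negative. At an unadjusted p under 0.05, 4 were higher, against 6.62% of all genes, and 2 were lower, a share near the 5.26% of all genes. The median was 0.36, and 0.11 without the muscle-rich libraries. Ptgs2, the inducible cyclooxygenase of prostaglandin synthesis, measured 105, 127, 155 and 129.6 CPM in the combination libraries against 71.9, 79.9, 47.4 and 43.7 CPM in the control libraries, all higher. Nos2, the inducible nitric oxide synthase, measured 29.9, 40.4, 74.9 and 118 CPM in the combination libraries against 35.0, 17.2, 17.3 and 16.1 CPM in the control libraries, with an overlap at control library 1. Il1b, a pyrogenic cytokine, measured 17.5, 27.0, 36.0 and 55.6 CPM in the combination libraries against 68.1, 82.4, 70.7 and 56.4 CPM in the control libraries, all lower. The edgeR adjusted p-values were 0.249, 0.241 and 0.420 in that order. Vcam1, an adhesion molecule, and Il23a, a cytokine subunit, had the smallest p-values of the list, with log2 fold changes of 0.64 ± 0.18 and -0.59 ± 0.18.

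Neutrophil markers had a median of 0.10 over 25 tested genes (0.30 without the muscle-rich libraries). At an unadjusted p under 0.05, 2 were higher and 0 lower (8%, against 6.62% of all genes for higher values). S100a9, a subunit of calprotectin, measured 41.3, 28.5, 115 and 47.8 CPM in the combination libraries against 28.9, 70.5, 41.7 and 39.6 CPM in the control libraries, and Cxcr2, the chemokine receptor, 5.48, 3.34, 11.5 and 6.60 CPM in the combination libraries against 5.55, 9.78, 6.93 and 5.43 CPM in the control libraries. Combination library 3 was highest in both genes. The 2 genes with the smallest p were Il1r2, a decoy receptor for interleukin 1, at 1.32 ± 0.37 and Mmp8, a neutrophil collagenase, at 1.22 ± 0.52. Of 8 granule protein genes, 3 were positive and 5 negative, with a median of -0.38 (-0.20 without the muscle-rich libraries). An unadjusted p under 0.05 was found for 1 (12.5%, against 11.9% of all genes in either direction). Lyz2, the myeloid lysozyme, had -0.55 ± 0.28 and Ctsg, cathepsin G, the gene at that level, 1.73 ± 0.78. Ctsg was near the floor and overlapped, with 1.87, 1.04, 0.489 and 0.113 CPM in the combination libraries against 0.104, 0.267, 0.259 and 0.413 CPM in the control libraries.

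Transcripts of the respiratory chain showed small values. Of 37 complex I subunit genes, 28 were negative and 9 positive, with 0 at an unadjusted p under 0.05, a median of -0.02 and a range of -0.21 to 0.16. Ndufs1, the largest core subunit, measured 106, 99.5, 96.8 and 90.9 CPM in the combination libraries against 109, 109, 105 and 103 CPM in the control libraries. The 9 tested mitochondrially encoded genes had a median of 0.10, and mt-Co1, a cytochrome oxidase subunit, measured 3911, 3613, 4131 and 4030.1 CPM in the combination libraries against 2871, 4909, 2508 and 2902 CPM in the control libraries, with control library 2 highest. Integrated stress response and serine synthesis genes, which respond to amino acid or respiratory stress, had a median of 0.10. At an unadjusted p under 0.05, 4 of 23 were higher and 0 lower (17.4%, against 6.62% of all genes for higher values). Ddit3, the transcription factor CHOP (chr10:127290774-127296288), measured 19.8, 14.2, 22.6 and 20.4 CPM in the combination libraries against 11.0, 12, 9.36 and 10.6 CPM in the control libraries. Atf3, an early stress factor (chr1:191170296-191218039), measured 70.2, 23.9, 31.2 and 21.4 CPM in the combination libraries against 13.2, 17.3, 14.1 and 15.1 CPM in the control libraries. Both were higher in every combination library, with log2 fold changes of 0.84 ± 0.27 and 1.29 ± 0.42 and edgeR adjusted p-values of 0.209 and 0.217. Cholesterol synthesis genes had 18 of 22 negative, 0 at an unadjusted p under 0.05 and a median of -0.12.

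Genes of mitosis were positive in 21 of 22, with 6 at an unadjusted p under 0.05 (27.3%, all higher, against 6.62% of all genes) and a median of 0.34. None of the 22 was without overlap, against 4.43% of all genes with every combination library above. Ube2c, a ubiquitin-conjugating enzyme of mitotic exit, measured 118, 89.0, 55.1 and 108 CPM in the combination libraries against 72.5, 46.6, 44.8 and 69.9 CPM in the control libraries. Its log2 fold change was 0.66 ± 0.23, and 0.29 without the muscle-rich libraries. Control libraries 1 and 4 reached the combination range in Ube2c, and their summed mitotic levels were 2499 and 2243 CPM, against 1841 to 2846 CPM in the combination libraries. S phase genes had a median of 0.09 with 0 of 22 at an unadjusted p under 0.05. Among 20 p53 targets, 2 were higher and 1 lower at that level, 15% in either direction against 11.9% of all genes. The smallest p-values were those of Polk, a DNA polymerase of damage bypass, at 0.49 ± 0.12, and Aen, an exonuclease of apoptosis, at -0.33 ± 0.12. MHC class I presentation genes were positive in 19 of 22 with a median of 0.13, which was -0.01 without the muscle-rich libraries. Tap1, a peptide transporter, was the single gene at an unadjusted p under 0.05 (4.55%, against 6.62% of all genes for higher values). It was at 0.36 ± 0.14, and at 0.10 without those libraries.

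The largest fold changes belonged to skeletal muscle. All 17 muscle genes tested were positive, with a median of 5.52 (1.02 without the muscle-rich libraries). At an unadjusted p under 0.05 there were 16 (94.1%, all higher, against 6.62% of all genes). Without overlap there were 8, all higher, against 4.43% of all genes. These counts hold genes such as Myh4, Atp2a1 and Actn3, which passed the count filter mainly through treated libraries, where they were high. Their higher values are thus no independent support. Acta1 measured 239, 5.15, 2.81 and 96.8 CPM in the combination libraries, against 0.467, 0.748, 0.465 and 0.708 CPM in the control libraries. Myh4, a fast myosin heavy chain (chr11:67238029-67260446), had 5052 counts in the combination and 2 in the control, a ratio of 2675 with an exact 95% counting interval of 740.0 to 22091. Xirp2, Trdn, Trim63 and Eef1a2, which encode muscle structural, calcium release, protein breakdown and translation proteins, had 0 counts in the controls. They too passed the count filter through treated libraries. Set against a floor of 3 counts over the control group they were at least 295-fold, 298-fold, 207-fold and 190-fold higher in that order (intervals and floors cover counting error only). Combination libraries 1 and 4 held most of these reads. Xirp2 measured 46.7, 0.329, 0.122 and 5.87 CPM and Trim63 27.1, 0.110, 0.245 and 9.02 CPM in the combination libraries. Without combination library 1 the bounds were 51.8-fold for Xirp2, 180.4-fold for Trdn, 76.8-fold for Trim63 and 77.7-fold for Eef1a2. Without both muscle-rich combination libraries they were 5.53-fold, 27.0-fold, 4.15-fold and 9.68-fold in the same order. Myh4 measured 69.0, 7.99, 5.75 and 211 CPM in the combination libraries, and its ratio on libraries 2 and 3 alone was 249 (68.1 to 2066).

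**Figure D4:**
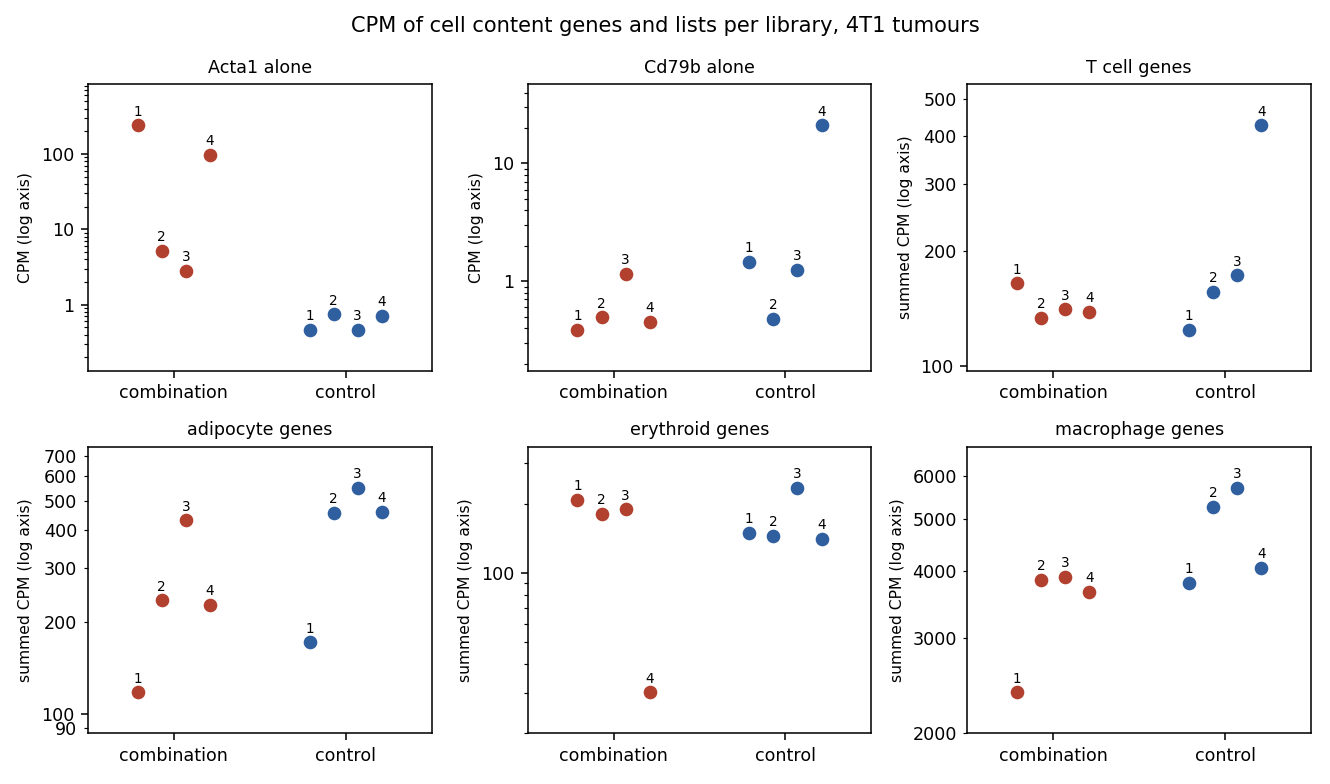
Levels of Acta1, of Cd79b and of 4 summed lists in each library on log axes, combination left of control, with replicate numbers above the points. Combination libraries 1 and 4 are highest in Acta1, control library 4 is highest in Cd79b and T cell genes, and combination library 4 is lowest in erythroid genes.

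Other cells of the tumour pieces differed between single libraries. Cd79b, a B cell receptor chain, measured 0.387, 0.493, 1.16 and 0.451 CPM in the combination libraries against 1.45, 0.481, 1.24 and 21.1 CPM in the control libraries, and Igkc, the kappa light chain, 1.1, 4.93, 55.9 and 1.30 CPM in the combination libraries against 53.9, 2.72, 8.79 and 108 CPM in the control libraries. The B and plasma cell list was negative in 13 of 14 with a median of -2.64 (-2.03 without the muscle-rich libraries), none at an unadjusted p under 0.05, with Fcer2a and Cd79b high in control library 4 alone. Without that library the Cd79b log2 fold change was -0.77, against -3.26 with it. Among T cell genes, the Cd5 log2 fold change was -0.43 without it and -1.57 with it. Adipocyte genes were negative in 11 of 11 with a median of -1.09 (-0.42 without the muscle-rich libraries), and their sums overlapped at 117 to 431 CPM in combination and 171 to 550.0 CPM in control libraries. Fibroblast and matrix genes had a median of 0.09 over 23 tested, with Lum, the collagen-binding lumican, lower in all combination libraries at 16.6, 29.2, 25.9 and 17.1 CPM in the combination libraries against 42.2, 37.2, 45.4 and 33.3 CPM in the control libraries. Endothelial genes had a median of -0.06, mast cell and basophil genes -0.24, erythroid genes 0.04 and epithelial and keratin genes 0.05. Without the muscle-rich libraries these medians were 0.06, -0.50, 0.28 and -0.28 in the same order, so the endothelial and epithelial ones turned. In these 4 lists a single gene passed an unadjusted p under 0.05 in each of 2: Mcpt8, a basophil protease, at 0.93 ± 0.31 and Cldn7, a claudin of tight junctions, at -0.91 ± 0.35. Those shares were 7.69% and 5.88%, against 11.9% of all genes in either direction.

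Poly I:C and phenformin alone were measured against the same 4 control libraries, so values of the 3 arms share their controls and are given side by side without a test between them. Adm had log2 fold changes of 1.49 in the combination, 1.46 with poly I:C and 1.18 with phenformin. Kdm3a was at 0.60 in the combination, 0.56 with poly I:C and 0.25 with phenformin, and the medians of the hypoxia list were 0.49, 0.77 and 0.29 in that order. Fkbp5 was at 0.97 in the combination, 0.10 with poly I:C and 0.70 with phenformin, and the glucocorticoid-responsive list had medians of 0.94, 0.24 and 0.74. For Mt1 and Mt2 the poly I:C values, 1.10 and 1.71, stood nearer the combination values than the phenformin values, 0.23 and 0.08. Gzme was at 1.76 in the combination, 1.76 with poly I:C and 0.12 with phenformin. Mgl2 was at -2.53 in the combination, -3.02 with poly I:C and -0.01 with phenformin. The medians of neutrophil markers were 0.10 in the combination, 1.57 with poly I:C and -0.35 with phenformin. Those of interferon-stimulated genes were 0.26, 0.66 and -0.04, and those of NF-kB targets 0.36, 1.06 and -0.09 in the same order. Nos2 was at 1.62 in the combination, 3.03 with poly I:C and -0.09 with phenformin. Cd83 was at -1.28 in the combination, -0.12 with poly I:C and 1.01 with phenformin, but single libraries carried the values of the other arms. It measured 51.8, 2.24, 6.05 and 5.34 CPM in the 4 poly I:C libraries and 20.3, 61.3 and 25.5 CPM in the 3 phenformin libraries. All poly I:C libraries but the first thus lay below every control.

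**Figure D5:**
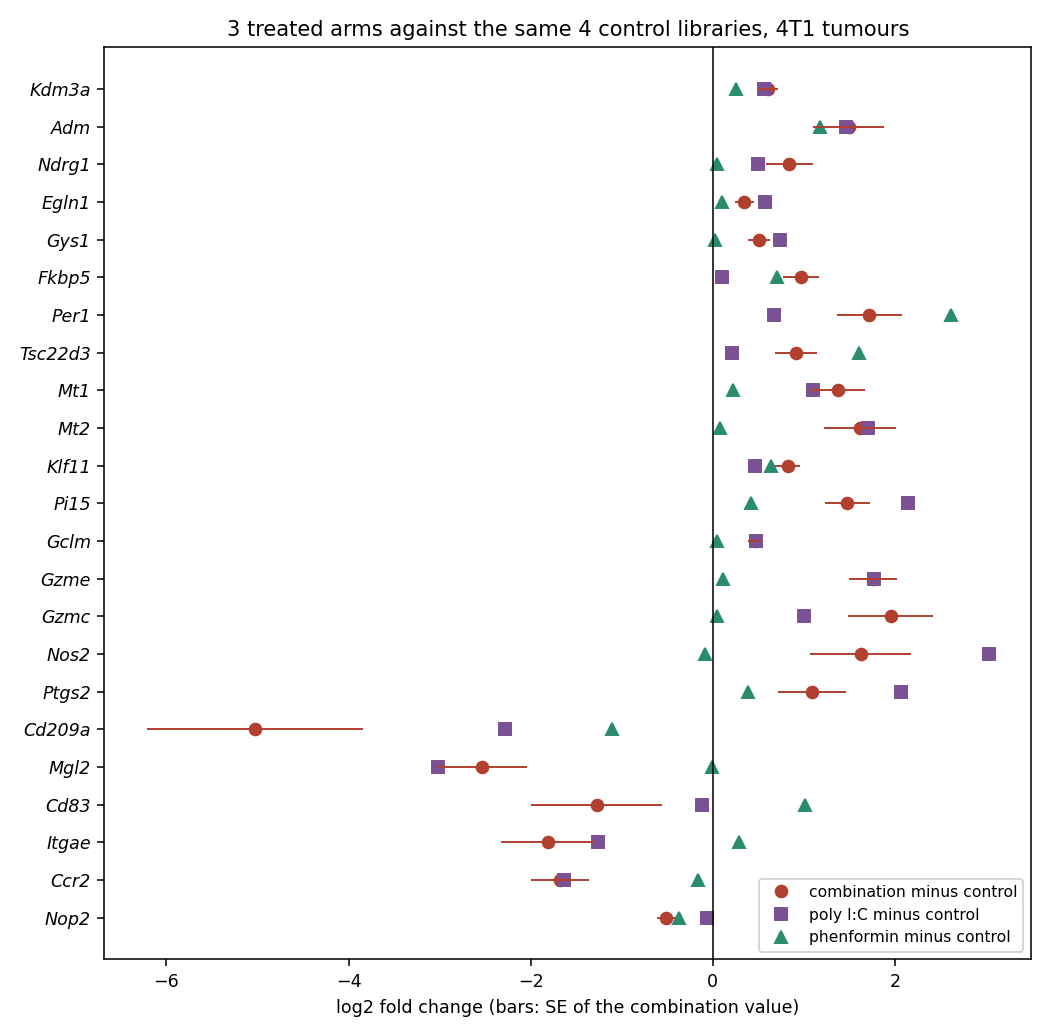
Log2 fold changes of 23 genes in combination (circles, bars are the SE), poly I:C (squares) and phenformin (triangles) tumours, each against the same 4 control libraries. Adm lies above 1 in all 3 arms, Per1 is furthest right with phenformin, and Nos2 is furthest right with poly I:C.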

How the data were processed

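Strand-specific polyA RNA-seq libraries were made from tumour RNA, per the labels' protocols. The authors deposited unnormalized read counts for each gene. The submitters' processing notes name Trimmomatic 0.32.48, STAR 2.3.0, featureCounts 1.4.4 and mm10 (GRCm38), and the strand setting is not given in the sources used here. All 31 count columns matched a sample title. Of 39017 gene IDs, 37607 were found in the GENCODE M21 annotation of GRCm38, and 17169 of the 17445 genes tested have coordinates from it.

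Genes were kept by edgeR's filterByExpr (minimum count 10, minimum total 15) and scaled by TMM. The model had 1 mean for each of the 4 groups of 4T1 libraries, which share an estimate of spread, and edgeR 4.0.16 (quasi-likelihood test, R 4.3.3) tested combination minus control with Benjamini-Hochberg adjustment at 0.05. CPM are TMM-scaled, apart from the H2-Ea-ps values, the Acta1 limit of 10 CPM and the list sums, which are scaled to library totals. List sums also include members that were not tested. Alternatives were DESeq2 1.42.0, limma 3.58.1 (voom), the 8 libraries alone, other filters and scaling, a replicate block, and leaving out single libraries. On simulated counts, with changes set in genes above 1 CPM, the test of 15 libraries recovered 67% of 2-fold and 94% of 4-fold changes. It also called 7 unchanged genes. The simulation drew each gene independently and held no muscle-rich library, so recovery in the real data may be lower. Libraries of the pair differed by more than counting noise, so none was a duplicate.

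The comparison and the gene lists were chosen with earlier results of these data known, and 4 lists (ribosome biogenesis, FoxO, granzyme, and monocyte and eosinophil genes) were added after seeing them. Named genes were the 20 with the smallest p among genes called on the 8 libraries, the 5 largest increases and 5 largest decreases without overlap (unadjusted p under 0.05, average log2 CPM of at least 1), and the 2 smallest p of each list, apart from a result that is not reported here. Other named genes were chosen after their values were seen.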

Additional observations from a re-analysis of the deposited data

Results flagged for a closer look

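Some single libraries lay far from the other 3 of their group by Dixon's test, which chance does in about 1 in 20 groups. Both groups of every list and of most named genes were examined, so chance alone would give some of these. Among summed lists, these were macrophage genes in combination library 1 (2378 CPM, others 3659 to 3898), class II genes in combination library 4 (5123 CPM, others 2549 to 2929) and erythroid genes in combination library 4 (30.1 CPM, others 181 to 207). In the control group they were glucocorticoid-responsive genes in library 1 (901 CPM, others 736 to 763), T cell genes in library 4 (428 CPM, others 124 to 173) and erythroid genes in library 3 (234 CPM, others 141 to 149.7).

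Among single genes of the combination group, Xirp2 was high in library 1 (46.7 CPM, others 0.122 to 5.87), and library 3 was high in Ccl22 (2.39 CPM, others 0.710 to 0.959), Mmp8 (16.2 CPM, others 5.61 to 6.99) and Cd79b (1.16 CPM, others 0.387 to 0.493). In the control group, Depdc7 was high in library 1 (42.3 CPM, others 30.9 to 32.2), mt-Co1 in library 2 (4909 CPM, others 2508 to 2902), Il1r2 in library 2 (10.5 CPM, others 5.29 to 5.78) and Cd209a in library 3 (3.21 CPM, others 0.985 to 1.30). Control library 4 was high in Cd79b (21.1 CPM, others 0.481 to 1.45), Fcer2a (12.8 CPM, others 0 to 0.363), Cd5 (9.15 CPM, others 1.14 to 1.87) and Ccl22 (25 CPM, others 5.65 to 8.22).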

How the results depend on the processing

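The count of called genes depended on the model. It was 0 with edgeR on 15 libraries (2072 at an unadjusted p under 0.05), 395 with DESeq2 (2159 unadjusted), 226 with limma voom (2896) and 32 with edgeR on the 8 libraries alone (2513), and the cause was not tested. It stayed 0 with DESeq2 size factors in edgeR (2100 unadjusted), with no filter (2374) and with a filter at 1 CPM (2014). Leaving out single libraries gave 0 to 1 calls on 15 libraries, with Siglec5 lower without control library 4. The same on 8 libraries, chosen after seeing the data, gave 0 to 40: without combination libraries 1 to 4 there were 28, 0, 1 and 4, and without control libraries 1 to 4 there were 40, 0, 0 and 2. Without libraries with Acta1 above 10 CPM there were 0 calls on 15 libraries (1398 unadjusted) and, in a fit added after seeing the data, 5 on 8. A replicate block gave 0 calls (1973 unadjusted), and GC correction, added after seeing the data, gave 0 without the block (2084) and 0 with it (1982). Deviations of libraries with the same number correlated at 0.05, 0.02, -0.07 and -0.12, and those of libraries with different numbers at -0.14 to 0.18. No pairing by number showed in these values, which cannot exclude one. The Hba-a1 log2 fold change, of a haemoglobin gene at -0.17, reversed to 0.0732 without the Acta1-high libraries (0.0727 in the 8-library fit without them), and it ranged from -0.41 to 0.16 with single libraries left out (-0.41 to 0.18 on 8 libraries, with 0.0161 there without control library 3), and the Ly6c2 log2 fold change, of a monocyte gene at 0.57, reversed to -0.0817 without the Acta1-high libraries (-0.0826 in the 8-library fit without them). The bounds and ratios of low-count genes without single libraries were added after seeing the data. The self-test on simulated counts recovered 67% of 2-fold changes in genes above 1 CPM. Changes of that size may thus be missed, and smaller ones more often.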

Other observations

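Ribosome biogenesis genes, chosen as a list after their values were seen, were lower in the combination. Of 44 tested, 40 were negative, with a median log2 fold change of -0.27. At an unadjusted p under 0.05, 28 were lower (63.6%, against 5.26% of all genes) and 0 higher, and 20 had no overlap (all lower, against 4.2% of all genes). Because the list was chosen on these values, its shares are no test. Ddx31, a nucleolar helicase, measured 15.7, 15.5, 15.8 and 16.6 CPM in the combination libraries against 25, 21, 23.5 and 20.8 CPM in the control libraries, a log2 fold change of -0.50 ± 0.09. Rrs1, Bop1, Polr1e and Surf6, which serve rRNA synthesis or processing, were at -0.52, -0.49, -0.53 and -0.38. Npm1, nucleophosmin, was at 0.08. The list's medians with poly I:C and phenformin, against the same controls, were -0.07 and -0.16.

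FoxO and fasting-responsive genes, chosen in the same way, were positive in 17 of 18 tested, with a median of 0.52. At an unadjusted p under 0.05 there were 13 (72.2%, all higher, against 6.62% of all genes), and 11 had no overlap (all higher, against 4.43% of all genes). These shares are likewise no test. Cdkn1b, the cyclin-dependent kinase inhibitor p27, measured 177, 192, 186 and 188 CPM in the combination libraries against 130.2, 152, 135 and 134 CPM in the control libraries, a log2 fold change of 0.43 ± 0.08. Foxo3, a transcription factor of this group, was at 0.43 ± 0.10, Cited2, a transcriptional coregulator, at 0.79 ± 0.16 and Klhl24 at 0.62 ± 0.16. Fbxo32, a ubiquitin ligase of muscle wasting, was at 1.02 ± 0.20, and Foxo1 at -0.12 ± 0.20. Some of these genes are high in skeletal muscle, whose transcripts were high in combination libraries 1 and 4. Without the muscle-rich libraries the list's median was 0.55, Foxo3 was at 0.48 and Fbxo32 at 0.74. The part of muscle content in these values was not tested.

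Of 10 granzyme and perforin genes, also chosen after their values were seen, 9 were positive. At an unadjusted p under 0.05 there were 7 (70%, all higher, against 6.62% of all genes), a share that is no test of a list so chosen. The median was 1.68 in the combination (1.53 without the muscle-rich libraries), 0.84 with poly I:C and 0.34 with phenformin. Gzmd measured 119, 91.2, 33.5 and 19.1 CPM in the combination libraries against 10.7, 27.3, 11.0 and 8.73 CPM in the control libraries, and combination libraries 1 and 2 were the highest. Siglec5, annotated as Siglecf, a receptor of eosinophils, had 6 counts in the combination and 70 in the control, a ratio of 0.0908 with an exact 95% counting interval of 0.0322 to 0.208. It passed the count filter mainly through the control libraries, where it was high. The 8 monocyte and eosinophil genes were 4 positive and 4 negative, with a median of -0.16. Wee1, a kinase that restrains mitotic entry, was at 1.01 ± 0.21 with an edgeR adjusted p of 0.0860.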
